A study of Mus musculus with 6 samples.

Results

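The 7 genes *Cnp*, *Omg*, *Pmp22*, *Nfasc*, *Cntn2*, *Tnr* and *Erbb3* encode myelin proteins, molecules of contact between axons and glia, and a receptor for a glial growth factor. They were taken by gene symbol: every probe set annotated with only that symbol was a measurement of the gene. This gave 134 probe sets of 58919 tested, and 7 genes of 5017. Total RNA of mouse brain was hybridised to 6 whole-transcript arrays that read a gene through several probe sets. The labels title 3 samples knockout and 3 control. The knockout group was 3 samples of the genotype APPPS1-FVBxABCC1, from mice of the APPPS1 line crossed to an *Abcc1* knockout. The control group was 3 samples of the genotype APPPS1-FVB. Both groups therefore carry the APPPS1 transgenes, which put mutant human proteins of the amyloid pathway under a *Thy1* promoter, active mainly in neurons, and lead to amyloid plaques. FVB is an inbred strain. *Abcc1* encodes a membrane transporter of glutathione conjugates and was not analysed here. The labels give no age, sex or batch, and nothing states that the samples are separate animals, so each p-value reflects only how far these 6 samples scatter, which may be technical.

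Myelin is the membrane that oligodendrocytes in the brain, and Schwann cells in peripheral nerve, wrap around axons. Along a myelinated axon the membrane stops at the nodes of Ranvier, and adhesion molecules of the axon and the glial cell meet there, at the flanking paranodes and at the juxtaparanodes beyond them. Damage to myelin is described around amyloid plaques.

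No change in any of the 7 genes was detected in the knockout. Of their 134 probe sets, 0 passed at a limma adjusted p below 0.05, where 3 of all 58919 probe sets, or 0.00509%, did so. At an unadjusted p below 0.05 there were 4 of 134, all with higher knockout values, 2 in *Nfasc* and 2 in *Erbb3*. That is 2.99% of these probe sets, against 4.75% with higher and 2.94% with lower knockout values over the whole table. The 3 knockout values lay entirely above or below the 3 control values at 10 of 134 probe sets (7.46%). These were 7 with higher and 3 with lower knockout values, against 7.94% and 5.52% of all probe sets and 13.5% in either direction. The differences in log2 signal between the groups ran from -0.31 to 0.55 over the 134 probe sets, 79 above 0 and 55 below, where 52.0% and 47.2% of all probe sets lay above and below. They had a median of 0.05 beside 0.01 for the whole table. Probe sets of the same gene are read on the same arrays, so counts of them here and below are not independent evidence.

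A gene was summarised in 2 ways, by its brightest probe set, taken over all 6 arrays, and by the mean of all its probe sets. By either summary 0 of the 7 genes passed at a limma adjusted p below 0.05, as did 0.0% of all 5017 genes, and 0 of the 7 had an unadjusted p below 0.05. Over all genes that unadjusted threshold was passed with higher and lower knockout values by 1.81% and 3.07% at the brightest probe set and by 7.95% and 6.12% by the mean. At the brightest probe set 5 of the 7 lay lower and 2 higher in knockouts, where 56.7% and 42.5% of all genes did so, and their median of -0.05 stood beside -0.02 over all genes. The groups overlapped in all 7, and were separate in 14.6% of all genes. The mean of probe sets put 4 lower and 3 higher, against 51.2% and 48.1% of all genes. The 95% intervals of the differences between means of probe sets reached no lower than -0.29 (*Pmp22*) and no higher than 0.28 (*Nfasc*) on the log2 scale. In brain RNA, fewer cells of a type and less RNA per cell cannot be told apart.

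**Figure D1:**
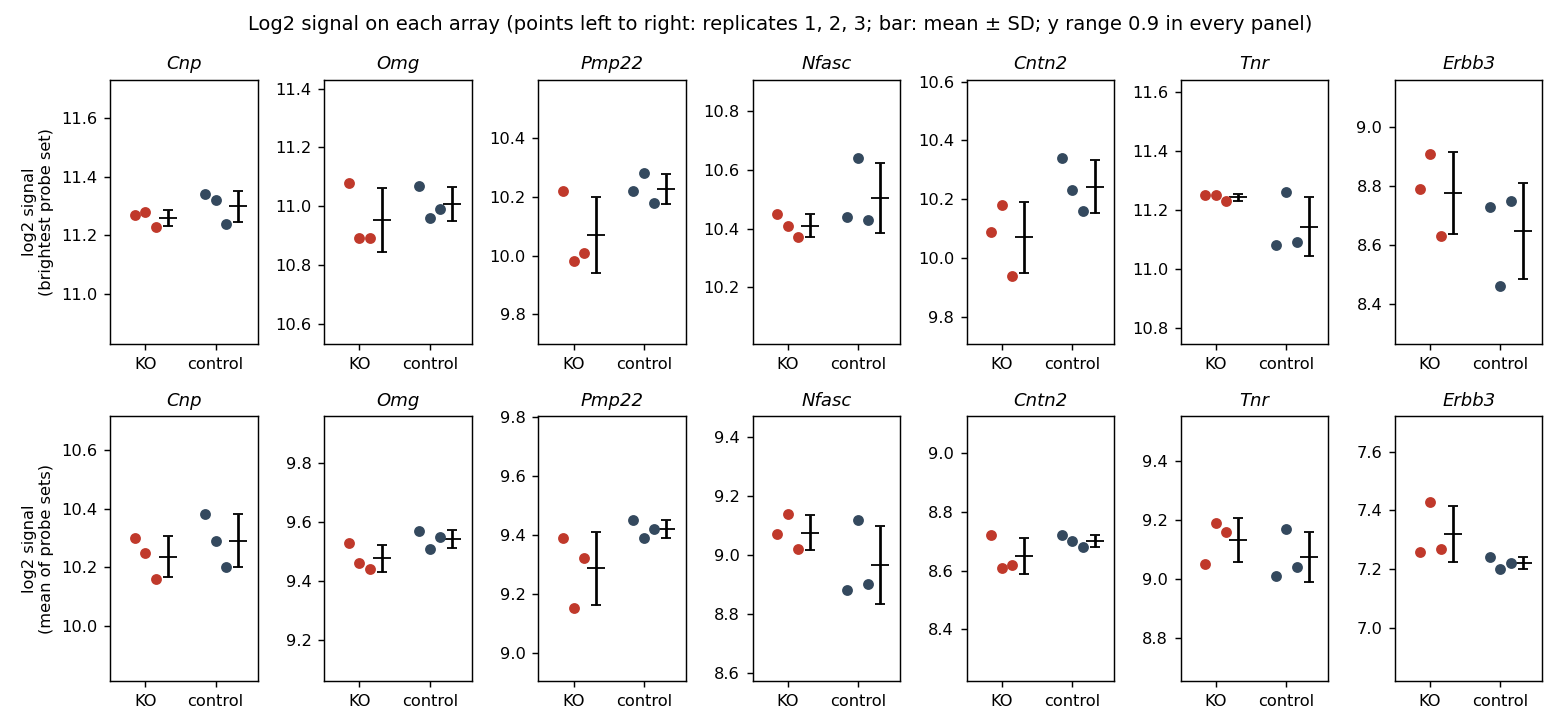
Log2 signal of each gene on every array, by the brightest probe set (top row) and by the mean of probe sets (bottom row), with knockout left of control and bars for mean ± SD (n = 3 each). The groups overlap in all panels of the top row, and in the bottom row they are separate for *Erbb3*, where the knockouts lie between 7.26 and 7.43 and the controls between 7.20 and 7.24.

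RefSeq start windows on the build GRCm38.p6, 250 bases before to 50 after a start, matched 5 of the 7 genes (*Cnp*, *Cntn2*, *Nfasc*, *Pmp22* and *Tnr*) with 9 windows in all, with 4 for *Pmp22* and 2 for *Nfasc*. They were searched on both strands for CAGCTG and CATCTG, E-boxes bound by Olig factors, ACAAAG, a core letter pattern of Sox factors, and CTGGCAC, a core pattern of the myelin factor Myrf. ACAAAG was found in 2 of the 9 windows, in *Cnp* and *Tnr*, and it is in 18.7% of all 32851 mouse windows of this length. CTGGCAC was found in 1, that of *Cnp*, against 5.01% of all windows. CAGCTG was found in 1, in a window of *Nfasc*, against 16.3%, and CATCTG in 0, against 17.2%. These are matches of letters and say nothing of whether a factor binds. The stretches outside the annotated gene are shown for *Cnp*, *Pmp22* and *Tnr*, the genes of which at least 150 such bases lie in a window. They come from a gene with 2 matches, one with none and one with 1, with the matching letters in capitals.
Cnp, chr11:100574689-100574908, plus strand: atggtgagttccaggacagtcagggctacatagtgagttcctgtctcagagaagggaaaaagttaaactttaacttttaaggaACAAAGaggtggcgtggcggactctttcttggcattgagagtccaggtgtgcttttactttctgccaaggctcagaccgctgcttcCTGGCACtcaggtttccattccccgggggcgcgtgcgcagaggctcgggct
Pmp22, chr11:63128732-63128981, plus strand: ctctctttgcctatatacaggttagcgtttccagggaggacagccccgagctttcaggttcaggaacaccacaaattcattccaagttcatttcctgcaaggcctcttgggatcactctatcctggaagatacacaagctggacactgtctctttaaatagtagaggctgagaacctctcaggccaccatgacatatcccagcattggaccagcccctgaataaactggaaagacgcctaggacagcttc
Tnr, chr1:159523519-159523728, plus strand: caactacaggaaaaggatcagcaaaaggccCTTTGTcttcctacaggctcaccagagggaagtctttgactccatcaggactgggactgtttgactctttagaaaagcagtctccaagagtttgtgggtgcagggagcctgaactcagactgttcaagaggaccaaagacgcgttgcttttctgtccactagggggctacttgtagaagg

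*Cnp* encodes a cyclic nucleotide phosphodiesterase of non-compact myelin and marks oligodendrocytes. It lies on chromosome 11 and had 7 probe sets. At the brightest, 10381158, log2 signals were 11.27, 11.28 and 11.23 in the knockouts, against 11.34, 11.32 and 11.24 in the controls. The groups overlapped, since the third control lay below 2 of the knockouts. The means were 11.26 ± 0.03 in knockouts and 11.30 ± 0.05 in controls (SD, n = 3 each), which differed by -0.04 (SE 0.07, limma adjusted p = 0.916). The interval ran from -0.22 to 0.14, or from 0.857-fold to 1.1-fold, at this probe set, and reflects only the scatter of these samples. Of the 7 probe sets 5 were lower and 2 higher. Only 10381157 was separate between the groups, with 10.86, 10.91 and 10.81 in knockouts and 10.96, 10.99 and 10.94 in controls. The dimmest of the 7, 10381155, had the lowest difference, -0.31 (SE 0.21), and 10381159 the highest, 0.18 (SE 0.21). These are the 2 noisiest probe sets of the gene. The mean over all 7 gave 10.30, 10.25 and 10.16 in knockouts and 10.38, 10.29 and 10.20 in controls, a difference of -0.05 (SE 0.06).

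*Omg* encodes the oligodendrocyte myelin glycoprotein, a surface protein with leucine-rich repeats that binds the Nogo receptor and is made by neurons as well as oligodendrocytes. All 3 of its probe sets were lower in the knockout, by -0.08, -0.05 and -0.06, and 0 of the 3 were separate between the groups. The brightest, 10388956, gave 11.08, 10.89 and 10.89 in knockouts and 11.07, 10.96 and 10.99 in controls. The 3 knockouts lay farther apart than the group means, which differed by -0.05 (SE 0.09, limma adjusted p = 0.906). The mean of the 3 probe sets was 9.53, 9.46 and 9.44 in knockouts, against 9.57, 9.51 and 9.55 in controls. Here 2 knockouts lay below all controls, and the difference was -0.06 (SE 0.05) with an interval from -0.17 to 0.05.

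*Omg* sits inside the span of *Nf1* on chromosome 11, together with *Evi2a* and *Evi2b*. Most *Nf1* differences lay above 0, and neither *Omg* nor *Nf1* passed. *Nf1* encodes neurofibromin, an inhibitor of Ras. The knockout mean was above the control mean at 56 of its 58 probe sets, where 52.0% of all probe sets lay above 0. The 58 read 1 gene on the same 6 arrays, so they are not independent of each other. The median difference was 0.15, and the range -0.01 to 1.10. At 19 of them (32.8%) the knockout values lay above all control values, against 7.94% of all probe sets, and 0 passed the threshold (smallest limma adjusted p = 0.493). The mean of the *Nf1* probe sets was 9.81, 9.84 and 9.79 in knockouts and 9.58, 9.71 and 9.59 in controls. The difference was 0.19 (SE 0.05, limma adjusted p = 0.232). All knockouts lay above all controls by this summary, as was so for 11.3% of all genes. *Evi2a* had a difference of 0.02 (SE 0.08) by the mean. *Evi2b*, known from blood cells, had 6.17, 6.0 and 5.69 in knockouts and 6.65, 6.87 and 6.51 in controls at its brightest probe set, 10388962. The difference there was -0.72 (SE 0.16, limma adjusted p = 0.528), but the other 3 probe sets of *Evi2b* gave 0.04, 0.20 and -0.35, and its mean gave -0.21 (SE 0.13). Of 14 microglial markers 3 were measured, *Cd68*, *Cd84* and *Ptprc*. At the brightest probe set all 3 were lower in knockouts, by the mean of probe sets 2 were lower and *Cd84* was 0.11 higher (SE 0.21), and 0 passed. The mean signal of their brightest probe sets was 7.94, 7.13 and 7.92 in knockouts and 7.97, 7.82 and 7.98 in controls. On this average knockout 2 alone was well below the other arrays. For *Cd68* all knockouts lay below all controls at the brightest probe set (-0.55, SE 0.26), while *Cd84* and *Ptprc* overlapped. The part of the microglial markers in the *Evi2b* values was not tested.

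*Pmp22*, on chromosome 11, encodes a membrane protein of compact peripheral myelin and is also made by cells outside the myelin sheath. It had 5 probe sets, and all 5 were lower in the knockout, in a narrow range from -0.16 to -0.08. At the brightest, 10376954, signals were 10.22, 9.98 and 10.01 in knockouts, against 10.22, 10.28 and 10.18 in controls. Knockouts 2 and 3 lay below all controls, and knockout 1 was level with control 1. The means were 10.07 ± 0.13 in knockouts and 10.23 ± 0.05 in controls (SD, n = 3 each), a difference of -0.16 (SE 0.10, limma adjusted p = 0.723). Averaged over the 5 probe sets, signals were 9.39, 9.15 and 9.32 in knockouts and 9.45, 9.39 and 9.42 in controls. This gave -0.13 (SE 0.07, limma adjusted p = 0.428), the difference farthest from 0 among the 7 genes by this summary. Knockout 1 was level with the lowest control here. Knockout 2 was the lowest knockout at all 5 probe sets, and without it the difference of the means was -0.06. Of 8 markers of meninges 5 were measured, *Col1a1*, *Col3a1*, *Dcn*, *Lum* and *Slc47a1*, and 0 passed. The mean of probe sets was lower in knockouts for all 5, with a median of -0.25, where 51.2% of all genes were lower. At the brightest probe set *Col3a1* had 0.00 (SE 0.20) and *Col1a1* -0.03 (SE 0.12). By the mean of probe sets their signals averaged 6.43, 6.51 and 6.57 in knockouts and 6.78, 6.55 and 6.95 in controls. Control 2 lay among the knockouts. At the brightest probe set the averages were 8.69, 8.63 and 8.74 in knockouts and 8.86, 8.81 and 8.91 in controls, without overlap. Their part in the *Pmp22* values was not tested.

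**Figure D2:**
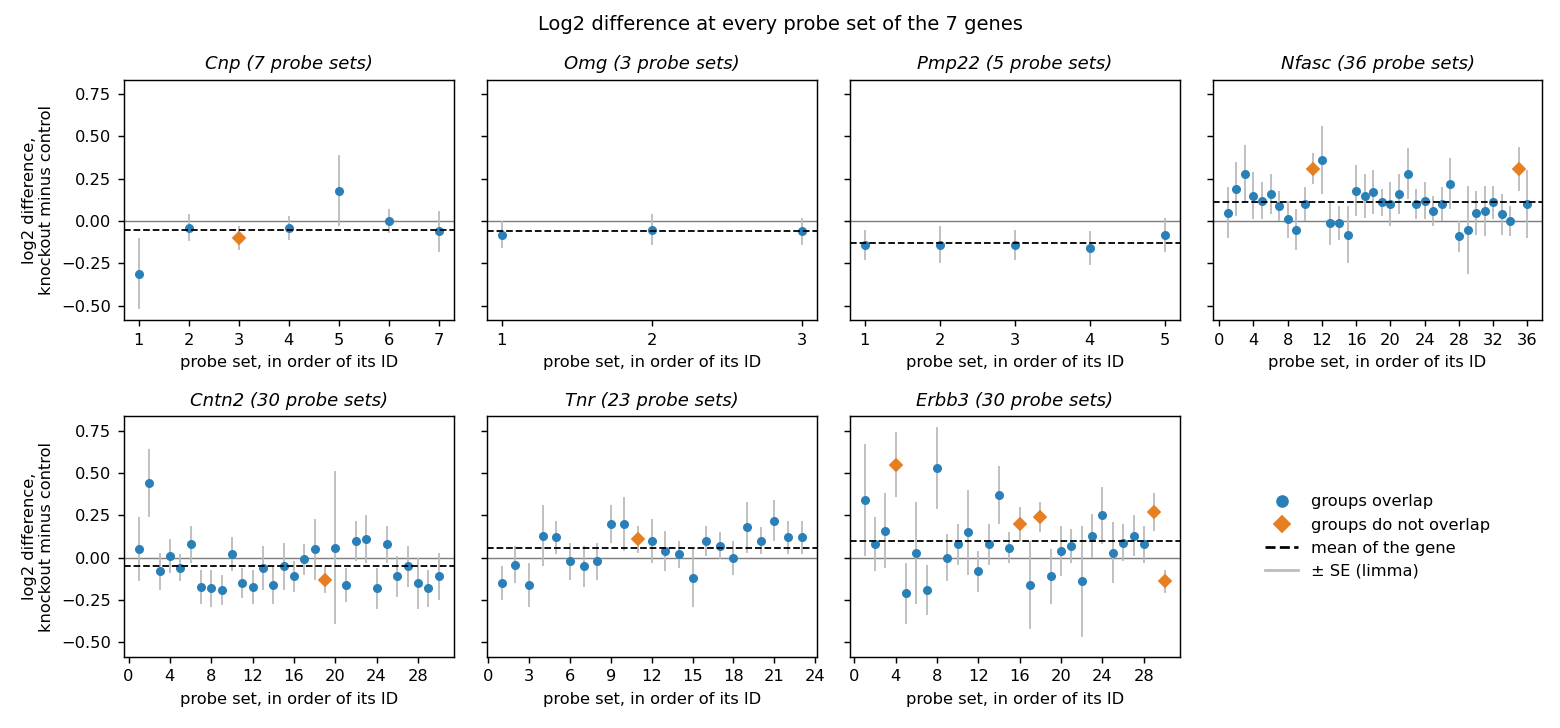
Log2 difference, knockout minus control, at every probe set of the 7 genes in order of probe set ID, with SE bars, the gene's mean as a dashed line and diamonds where the groups do not overlap. All 3 *Omg* and all 5 *Pmp22* points lie below 0, while 29 of 36 *Nfasc*, 16 of 23 *Tnr* and 22 of 30 *Erbb3* points lie above it. Of all probe sets 52.0% lay above 0, and the points of a gene come from the same arrays and are not independent.

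*Nfasc* encodes neurofascin, an adhesion molecule with a neuronal form at nodes and axon initial segments and a glial form at paranodes. Its 36 probe sets made it the most densely measured of the 7 genes. Of these 29 were higher and 7 lower in the knockout, with a median difference of 0.10 and a range from -0.09 to 0.36. The mean of all 36 was 9.07, 9.14 and 9.02 in knockouts, against 8.88, 9.12 and 8.90 in controls. Control 2 lay among the knockouts, and controls 1 and 3 lay below them all. The difference was 0.11 (SE 0.07, limma adjusted p = 0.539). Control 2 was the highest control at 32 of the 36 probe sets, and without it the difference of the means was 0.19. The brightest probe set, 10357764, was one of the 7 with a lower knockout mean, with 10.45, 10.41 and 10.37 in knockouts and 10.44, 10.64 and 10.43 in controls, a difference of -0.09 (SE 0.09, limma adjusted p = 0.820). The groups were separate at 2 of the 36 probe sets, both with higher knockout values, where 7.94% of all probe sets were separate in that direction. At 10357747 signals were 8.30, 8.43 and 8.24 in knockouts and 8.04, 7.94 and 8.07 in controls, a difference of 0.31 (SE 0.09, limma adjusted p = 0.574). At 10357771 they were 7.72, 7.5 and 7.5 in knockouts and 7.13, 7.48 and 7.19 in controls, a difference of 0.31 (SE 0.13, limma adjusted p = 0.649).

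*Cntn2* encodes a contactin, also called TAG-1, which is anchored to the axonal and glial membranes at the juxtaparanode. It neighbours *Nfasc* on chromosome 1, and no other measured gene lies between them. Of its 30 probe sets 20 were lower and 10 higher, with a median difference of -0.07. The brightest, 10357717, gave 10.09, 10.18 and 9.94 in knockouts and 10.34, 10.23 and 10.16 in controls. Knockout 2 lay just above the lowest control, so the groups overlapped. The means were 10.07 ± 0.12 in knockouts and 10.24 ± 0.09 in controls (SD, n = 3 each), a difference of -0.17 (SE 0.10, limma adjusted p = 0.706). Averaged over the 30 probe sets, signals were 8.72, 8.61 and 8.62 in knockouts and 8.72, 8.70 and 8.68 in controls, a smaller difference of -0.05 (SE 0.05). At 10357724 the groups were separate, with 9.12, 9.08 and 9.12 in knockouts and 9.16, 9.29 and 9.26 in controls. The probe set 10357707, the dimmest of the gene with a mean signal of 5.52, went the other way by 0.44 (SE 0.20), with 5.93, 5.54 and 5.75 in knockouts and 4.97, 5.23 and 5.69 in controls. The 3 measured genes on each side of the pair had means of probe sets at or above the controls, and 0 passed. These were *Dstyk* (0.10, SE 0.06), *Rbbp5* (0.00, SE 0.08), *Tmem81* (0.21, SE 0.11), *Gm10538* (0.01, SE 0.05), *Lrrn2* (0.05, SE 0.05) and *Mdm4* (0.16, SE 0.05, limma adjusted p = 0.243).

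*Tnr*, on chromosome 1, encodes tenascin-R, a matrix glycoprotein of nodes and perineuronal nets made by oligodendrocytes and some neurons. Of its 23 probe sets 16 were higher and 7 lower, with a median difference of 0.10 and a range from -0.16 to 0.22. The brightest, 10350971, gave 11.25, 11.25 and 11.23 in knockouts and 11.08, 11.26 and 11.09 in controls. The knockouts were close together with an SD of 0.01, and control 2 lay above all of them. The difference was 0.10 (SE 0.08, limma adjusted p = 0.791). Averaged over the 23 probe sets, signals were 9.05, 9.19 and 9.16 in knockouts and 9.01, 9.17 and 9.04 in controls, a difference of 0.06 (SE 0.06). As in *Nfasc*, control 2 was the highest control at most probe sets, 17 of 23. *Nf1* had the same order, with control 2 highest at 39 of 58. The groups were separate at 10350962, where knockouts had 9.73, 9.70 and 9.79 and controls 9.65, 9.66 and 9.58.

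*Erbb3*, on chromosome 10, encodes a neuregulin receptor with little kinase activity of its own, which signals through its partner *Erbb2* and acts in the Schwann cell lineage and in oligodendrocytes. Of its 30 probe sets 22 were higher and 8 lower, with a median difference of 0.08. The mean of all 30 was 7.26, 7.43 and 7.27 in knockouts, against 7.24, 7.20 and 7.22 in controls. All knockouts lay above all controls by this summary, as was so for 11.3% of all genes, and in either direction for 20.2%. The difference was 0.10 (SE 0.06, limma adjusted p = 0.492), and without knockout 2 it was 0.04. The brightest probe set, 10373494, gave 8.79, 8.91 and 8.63 in knockouts and 8.73, 8.46 and 8.75 in controls, which overlapped (difference 0.13, SE 0.12, limma adjusted p = 0.811). The groups were separate at 5 of the 30 probe sets, where 13.5% of all probe sets were. Knockout values were higher at 4 of them, against 7.94% of all probe sets. At 10373471 signals were 6.93, 7.13 and 6.98 in knockouts and 6.79, 6.06 and 6.55 in controls, a difference of 0.55 (SE 0.19, limma adjusted p = 0.615). At 10373485 they were 8.22, 8.42 and 8.21 in knockouts and 8.05, 8.09 and 8.0 in controls, a difference of 0.24 (SE 0.09, limma adjusted p = 0.632). The last probe set, 10373497, was lower, with 7.96, 7.92 and 7.95 in knockouts and 8.08, 8.04 and 8.14 in controls.

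**Figure D3:**
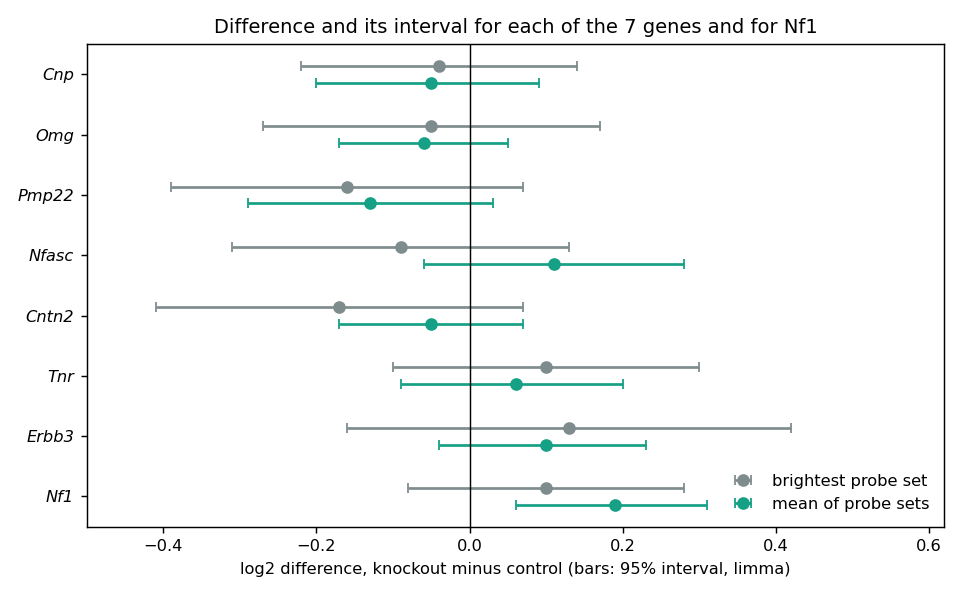
Log2 difference, knockout minus control, with its 95% interval from limma, for each of the 7 genes and *Nf1*, by the brightest probe set (grey) and the mean of probe sets (green). Every interval of the 7 genes includes 0, *Nfasc* has opposite signs by its 2 summaries (-0.09 and 0.11), and the interval of the *Nf1* mean runs from 0.06 to 0.31.

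Whether a single probe set differed from the others of its gene was tested with limma's diffSplice. Of the 134 probe sets 0 passed at an adjusted p below 0.05 and 3 at an unadjusted p below 0.05, where 252 of 53097 (0.475%) and 5.20% did so in the whole table, and the smallest adjusted p among the 134 was 0.202, at 10357707 of *Cntn2*. On simulated arrays with unequal noise this test also made calls in genes without a change, so its count over the whole table may hold calls of this kind. A second version, chosen after seeing the data, took each probe set minus the mean of the others of its gene and used that probe set's own variance. It called 0 of the 134 and 0 of 53097 (0.0%), while 4 of the 134 and 5.31% of all had an unadjusted p below 0.05. On the same simulated arrays it made far fewer calls in unchanged genes and missed some of the changed probe sets, whose shift was larger than any difference seen in the 7 genes. The simulated noise was drawn separately for each probe set, so variation shared by the probe sets of a gene was not in it. No probe set that departed from the rest of its gene was detectable among the 134 at 3 arrays a group.

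Other genes of myelin and its contacts, taken from lists, also gave 0 calls. Together the lists held 46 measured genes. With an unadjusted p below 0.05 there was 1 of 46 at the brightest probe set and 6 of 46 by the mean. Over all genes the shares with higher and lower knockout values were 1.81% and 3.07% at the brightest probe set and 7.95% and 6.12% by the mean, so neither count stands out from the table. Most genes of the lists were not analysed here, since 4918 of the 5017 genes in the table lie on chromosomes 1, 10, 11, 12 and 13. Of 40 genes of mature oligodendrocytes and myelin 4 were measured, 2 higher and 2 lower at the brightest probe set, with a median of 0.05. By the mean of probe sets 2 were higher and 2 lower, with a median of 0.08. In 2 of the 4, *Tppp* and *Aspa*, all knockouts then lay above all controls, as was so for 11.3% of all genes. *Tppp*, a tubulin-binding protein of oligodendrocytes, gave 10.62, 10.57 and 10.65 in knockouts and 10.47, 10.51 and 10.44 in controls, a difference of 0.14 (SE 0.07, limma adjusted p = 0.689). All its knockout values lay above the controls, where 14.6% of all genes were separate in either direction at the brightest probe set. *Aspa*, the aspartoacylase of oligodendrocytes, had 0.17 (SE 0.14) and *Kif19a*, a kinesin, -0.06 (SE 0.15). By the mean *Tppp* had 0.17 (SE 0.05, limma adjusted p = 0.230), *Aspa* 0.16 (SE 0.07, limma adjusted p = 0.368) and *Kif19a* 0.00 (SE 0.05). Of 17 genes of precursors and newly formed oligodendrocytes 4 were measured, all lower, with a median of -0.13. With the mean of probe sets 3 of the 4 were lower. *Neu4*, a sialidase, had -0.24 (SE 0.17), *C1ql1*, a secreted protein related to complement, -0.09 (SE 0.09) and *Tmem100* -0.16 (SE 0.17), and the groups overlapped in each.

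Of 36 genes of the node, paranode and juxtaparanode 11 were measured. At the brightest probe set 7 were higher and 4 lower, with a median of 0.05, and by the mean of probe sets 9 were higher. *Ank3*, which encodes the ankyrin that anchors neurofascin and sodium channels, gave 11.60, 11.52 and 11.56 in knockouts and 11.39, 11.56 and 11.27 in controls. The difference was 0.15 (SE 0.10, limma adjusted p = 0.736), and control 2 was again the highest control. *Dlg4*, a scaffold protein found at juxtaparanodes as well as synapses, had 0.11 (SE 0.07) at the brightest probe set and 0.03 (SE 0.05) by the mean. *Cadm3*, an axonal adhesion molecule of the internode, had -0.15 (SE 0.09) at the brightest probe set and 0.15 (SE 0.06) by the mean. *Cntnap1*, the paranodal partner of contactin, had 0.08 (SE 0.08).

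Among partners of *Erbb3*, 8 of 25 genes of neuregulin and ErbB signalling were measured, 3 higher and 5 lower, with a median of -0.04. The mean of probe sets put 5 higher, with a median of 0.03. The epidermal growth factor receptor gene *Egfr* had -0.19 (SE 0.13) at the brightest probe set and -0.15 (SE 0.05, limma adjusted p = 0.274) by the mean. Its groups were separate by the mean, as were those of 20.2% of all genes. *Erbb2* had -0.18 (SE 0.17) at the brightest probe set and 0.08 (SE 0.05) by the mean. *Erbb4*, a neuregulin receptor of interneurons, had 0.11 (SE 0.12). Of 15 genes of Nogo receptor signalling, to which *Omg* belongs by its binding, 4 were measured, 2 higher and 2 lower. *Rtn4*, which encodes Nogo, gave 11.07, 11.12 and 11.10 in knockouts and 10.99, 11.04 and 10.97 in controls, a difference of 0.10 (SE 0.07, limma adjusted p = 0.766). These groups were separate, though the mean of the probe sets of *Rtn4* gave 0.03 (SE 0.04). *Sema4d*, a semaphorin of oligodendrocytes, had 0.15 (SE 0.11) at the brightest probe set and -0.01 (SE 0.06) by the mean, and the neurotrophin receptor gene *Ngfr* had -0.03 (SE 0.09) at the brightest.

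Of 16 genes of the nodal and perineuronal matrix, the surroundings of tenascin-R, 4 were measured, 2 higher and 2 lower. *Adamts4*, a protease that cuts brain proteoglycans, gave 8.28, 8.53 and 8.27 in knockouts and 8.10, 8.08 and 7.88 in controls. The difference was 0.34 (SE 0.11, limma adjusted p = 0.600) at the brightest probe set and 0.10 (SE 0.06) by the mean. *Hapln1*, a link protein of hyaluronan, had -0.13 (SE 0.11) at the brightest and -0.18 (SE 0.04, limma adjusted p = 0.215) by the mean, where its groups were separate. *Chst3*, a sulfotransferase of chondroitin, had -0.22 (SE 0.11) at a dim brightest probe set and 0.03 (SE 0.06) by the mean. Of 9 measured genes of myelin lipid synthesis, from a list of 20, 5 were higher and 4 lower, with a median of 0.03. *Gal3st1*, the sulfotransferase that makes sulfatide, had 0.16 (SE 0.09) and *Degs1*, a desaturase of ceramide synthesis, -0.13 (SE 0.08). Of 14 genes of peripheral myelin and Schwann cells 4 were measured, 1 higher and 3 lower. *Cdh19*, a cadherin of Schwann cell precursors and some glia, had -0.19 (SE 0.09) at the brightest probe set and -0.02 (SE 0.08) by the mean. *Gas2l3* had 0.08 (SE 0.13) at the brightest and -0.01 (SE 0.05) by the mean.

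**Figure D4:**
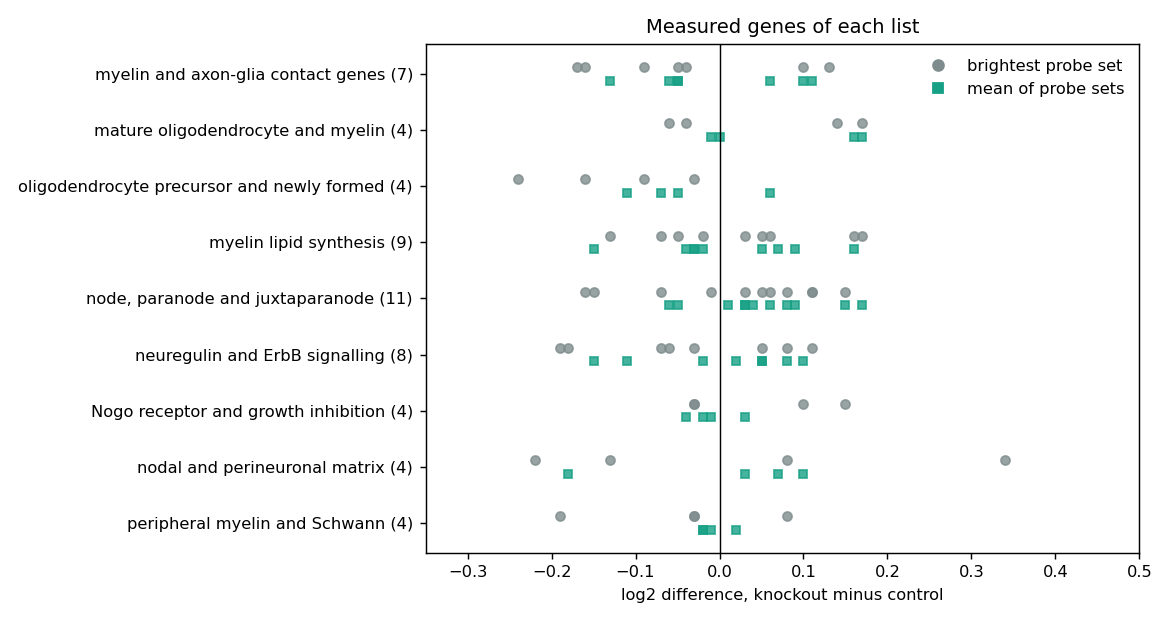
Log2 difference, knockout minus control, of every measured gene of the 7 and of each related list, by the brightest probe set (circles) and the mean of probe sets (squares), with the number measured in brackets. The genes of the related lists lie between -0.24 (*Neu4*) and 0.34 (*Adamts4*) at the brightest probe set and between -0.18 (*Hapln1*) and 0.17 by the mean.

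The genes with a brightest probe set most like that of each of the 7 over the 6 arrays were found among 3313 other genes with a mean log2 signal of at least 7. Pearson's r is a description of 6 arrays, with no test. *Slc39a11* (r = 0.990) and *Grb10* (0.985) were most like *Cnp*, and *Arsb* (0.975) and *Lamb1* (0.972) most like *Omg*. *Sycp2l* (0.965) and *Lrrc9* (0.960) were most like *Pmp22*, *Traf3* (0.979) and *Mfsd4a* (0.977) most like *Nfasc*, and *Med11* (0.987) and *Jmjd6* (0.983) most like *Cntn2*. *Sptb* (0.981) and *Nfic* (0.980) were most like *Tnr*, and *Zmynd11* (0.979) and *Ptpdc1* (0.977) most like *Erbb3*. None of the 7 was in the pair nearest to another, and each had between 12 and 47 genes at r of at least 0.9.

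Over the whole table, array medians were between 7.05 and 7.09 in knockouts and between 7.04 and 7.06 in controls, and pairs of arrays correlated between 0.984 and 0.990. The array's control features had medians between 4.20 and 4.29 in knockouts and between 4.09 and 4.16 in controls, so all knockouts lay above all controls. The part of this offset in the differences of the 7 genes was not tested. Neuronal markers of brain were present on every array: 3 of 15 were measured, *Map2*, *Syt1* and *Kif5a*, and the mean of their brightest probe sets was between 12.06 and 12.17 in knockouts and between 12.08 and 12.13 in controls. Of 10 astrocyte markers 6 were measured, with means between 11.24 and 11.32 in knockouts and between 11.34 and 11.42 in controls, without overlap. The 6 did not move together, and 0 passed. *Gfap* (-0.35, SE 0.26), *S100b* (-0.21, SE 0.09) and *Gja1* (-0.16, SE 0.09) were lower in knockouts. *Glul* (0.06, SE 0.08), *Atp1b2* (0.03, SE 0.07) and *Aldoc* (0.00, SE 0.08) were higher or level. By the mean of probe sets 4 of the 6 were lower and 2 higher, with -0.48 (SE 0.25) for *Gfap*. The groups of *S100b* and *Gja1* were separate by both summaries. Over all genes 14.6% were separate at the brightest probe set and 20.2% by the mean.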

How the data were processed

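Signals were deposited by the authors as a table of log2 values with 2 decimals (1.69 to 14.41). The log2 scale was read from the values. MAS5 is named in the submitters' processing notes, and no source used here says how arrays were scaled. IDs that precede every annotated probe set, 6616 in all, were treated as the array's control features and left out. Symbols were updated through RefSeq's gene table of GRCm38.p6, which served for names, chromosomes and neighbours. Knockout minus control was fitted over all 58919 probe sets with limma 3.58.1 (lmFit, eBayes, R 4.3.3), two-sided and Benjamini-Hochberg adjusted, likewise over 5017 means of genes. The adjusted p given for a brightest probe set is that of the fit over all probe sets. The share of all genes called by brightest probe set came from a separate fit, adjusted over the 5017 brightest probe sets. The smallest two-sided p of an exact permutation test at 3 arrays a group is 0.1. The fits were tested on simulated data. The number of arrays limits the precision.

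The genes, the lists and the tests were chosen with earlier results of these data known. Named genes are the 7, *Nf1*, *Evi2a* and *Evi2b*, up to 3 of each list by smallest raw p, and the 2 most like each of the 7. *Cntnap1*, the neighbours of *Cntn2* and the marker genes were named beside them after their values were seen. Alternatives covered normalization, dim probe sets, array weights, moderation of the variance, the replicate number, left-out arrays and the summary of a gene. Replicate numbers came from the sample titles, and same-numbered samples had correlations of deviations of 0.0367, -0.07 and -0.1, so they were not taken as pairs.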

Additional observations from a re-analysis of the deposited data

How the results depend on the processing

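Over 175 values of the 7 genes recomputed under the alternatives, 174 kept their direction, 0 passed the threshold and adjusted p ran from 0.216 to 0.984. The exception was *Nfasc*, at -0.09 by its brightest probe set and 0.11 by the mean of all its probe sets. Part of the 174 could not have changed direction. The moderation options and the replicate block leave a difference as it is. So does leaving out dim probe sets, for a brightest probe set.

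Leaving out 1 array at a time gave log2 differences at the brightest probe set from -0.07 to -0.02 for *Cnp*, -0.12 to -0.02 for *Omg*, -0.23 to -0.11 for *Pmp22*, -0.13 to -0.03 for *Nfasc*, -0.23 to -0.11 for *Cntn2*, 0.07 to 0.16 for *Tnr* and 0.04 to 0.20 for *Erbb3*. By the mean of probe sets *Cnp* ran from -0.10 to -0.01, *Omg* from -0.09 to -0.05, *Pmp22* from -0.18 to -0.06, *Nfasc* from 0.06 to 0.19, *Cntn2* from -0.08 to -0.03, *Tnr* from 0.02 to 0.10 and *Erbb3* from 0.04 to 0.13.

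The count over the whole table, 3 probe sets, was 6 after quantile normalization, 7 after median centring, 7 with array weights and 7 at a threshold of 0.1. Moderation with trend and robust options gave 21, and leaving the dimmest 1 in 3 probe sets out gave 19. It was 4 without knockout 2, 0 without any other single array, and 0 with the replicate number as a block, a fit that changed no call among the 7 genes. The cause was not tested. For diffSplice the count over the whole table was 260 after quantile normalization, 139 without the dim probe sets (36432 tested), 0 with the version that uses each probe set's own variance and 186 with the replicate block, with 0 of the 7 genes' probe sets called in each. By the mean of probe sets the median of the list of neuregulin and ErbB signalling became 0.03 from -0.04, that of the Nogo receptor list -0.02 from 0.04 and that of the nodal matrix list 0.05 from -0.02.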
